A study of Arabidopsis thaliana with 9 samples.

Results

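Aldehyde dehydrogenases oxidize aldehydes to carboxylic acids with NAD or NADP as the electron acceptor. In plants the superfamily works at several places in metabolism: it finishes the breakdown of amino acids in mitochondria, it supplies NADPH in the cytosol, it makes the acids from which sinapate and ferulate esters are built, it turns aminoaldehydes from polyamines into compatible solutes, and it removes reactive aldehydes that arise when membrane lipids are peroxidized. Several members are known in Arabidopsis to respond to dehydration, salt or abscisic acid.

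The family was taken as every probe set of the ATH1 array for which the platform's gene table gives a single gene symbol that begins with ALDH followed by digits. This rule found 8 probe sets for 8 genes among 22746 probe sets tested, of which 13513 have a single named gene. RefSeq gives 14 Arabidopsis genes such a symbol. The other 6, ALDH2B4, ALDH2B7, ALDH3H1, ALDH3I1, ALDH5F1 and ALDH12A1, have no named probe set here and were not analysed; they may lie among the 8730 probe sets that are unnamed here. None of the 8 member genes is next to another in the genome (0 adjacent pairs).

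Whole Arabidopsis seedlings were examined on 9 arrays, 3 in each of 3 groups. Col-0 was the untreated wild type, GAB was Col-0 whose medium contained 10 µM gabaculin (gabaculine), and gun4-1 was the mutant in the Col-0 background without the inhibitor. All seedlings spent 3 days in darkness and were then illuminated for 6 h, and the comparisons ask how nuclear transcripts differ when the synthesis of 5-aminolevulinic acid (ALA), the precursor of chlorophyll and heme, is lowered by a chemical or a genetic route. Gabaculine inactivates the aminotransferase that forms ALA and is also known as an inhibitor of GABA aminotransferase, and GUN4 is a regulator of Mg chelatase. The transcripts of GUN4 and of the GABA aminotransferase POP2 are not named on the arrays as used here, so the mutation could not be checked on its own transcript. GSA1, which encodes the ALA-forming aminotransferase, gave log2 fold changes of -0.13 in GAB and -0.10 in gun4-1, and neither was called.

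Values are log2 signals after robust multi-array averaging (RMA), so a difference of 1 is a doubling. Array medians lay between 6.41 and 6.57, and the correlation of 2 arrays within a group was 0.996 to 0.997. A probe set was called higher or lower where its Benjamini-Yekutieli adjusted p in limma was at most 0.05 over all 22746 probe sets and its fold change was above 1.5 or below 0.667. The number of arrays limits the precision, and each limma p-value sets a group difference against the spread between these arrays. The study describes its experiments in general as repeated independently, and whether the arrays of a group came from separate cultures or only from separate hybridizations is not stated for the arrays themselves. Because RNA came from whole seedlings, fewer cells of a type and less RNA per cell cannot be told apart. As a check of the tissue, RCA, the Rubisco activase of green tissue, had log2 signals from 14.23 to 14.39 on the 9 arrays. The root and seed storage markers listed have no named probe set here.

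Of the 8 aldehyde dehydrogenases, 0 were called in GAB, against 1.46% of all probe sets. In gun4-1, 1 was called, against 6.90%, and in gun4-1 compared directly with GAB 0 were called, against 3.80%. The single call was ALDH6B2, higher in gun4-1, where 2.44% of all probe sets were called higher; 0 members were called lower, against 4.46%. By the adjusted p alone, without the fold limits, 1 member passed in GAB, against 1.84% of all probe sets, and 2 passed in gun4-1, against 10.5%. Without any adjustment, p was under 0.05 for 3 members in GAB, 6 in gun4-1 and 4 in the direct comparison, beside 19.7%, 35.3% and 28.1% of all probe sets.

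The family did not move in one direction. In GAB 4 members had log2 fold changes above 0 and 4 below, with a median of 0.02, beside 0.00 over all probe sets. In gun4-1 3 were above 0 and 5 below, with a median of -0.16, beside 0.02. The median size of the difference, regardless of sign, was 0.11 in GAB and 0.31 in gun4-1 for the members, beside 0.098 and 0.15 for all probe sets. The arrays of gun4-1 and Col-0 did not overlap for 6 of 8 members, 3 above and 3 below, where 36.0% of all probe sets do not overlap. For GAB and Col-0 this held for 3 of 8 members, beside 24.0%, and for gun4-1 and GAB for 4 of 8, beside 29.8%. GAB and gun4-1 are compared with the same Col-0 arrays, so their values are given side by side and are not independent of each other.

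**Figure D1:**
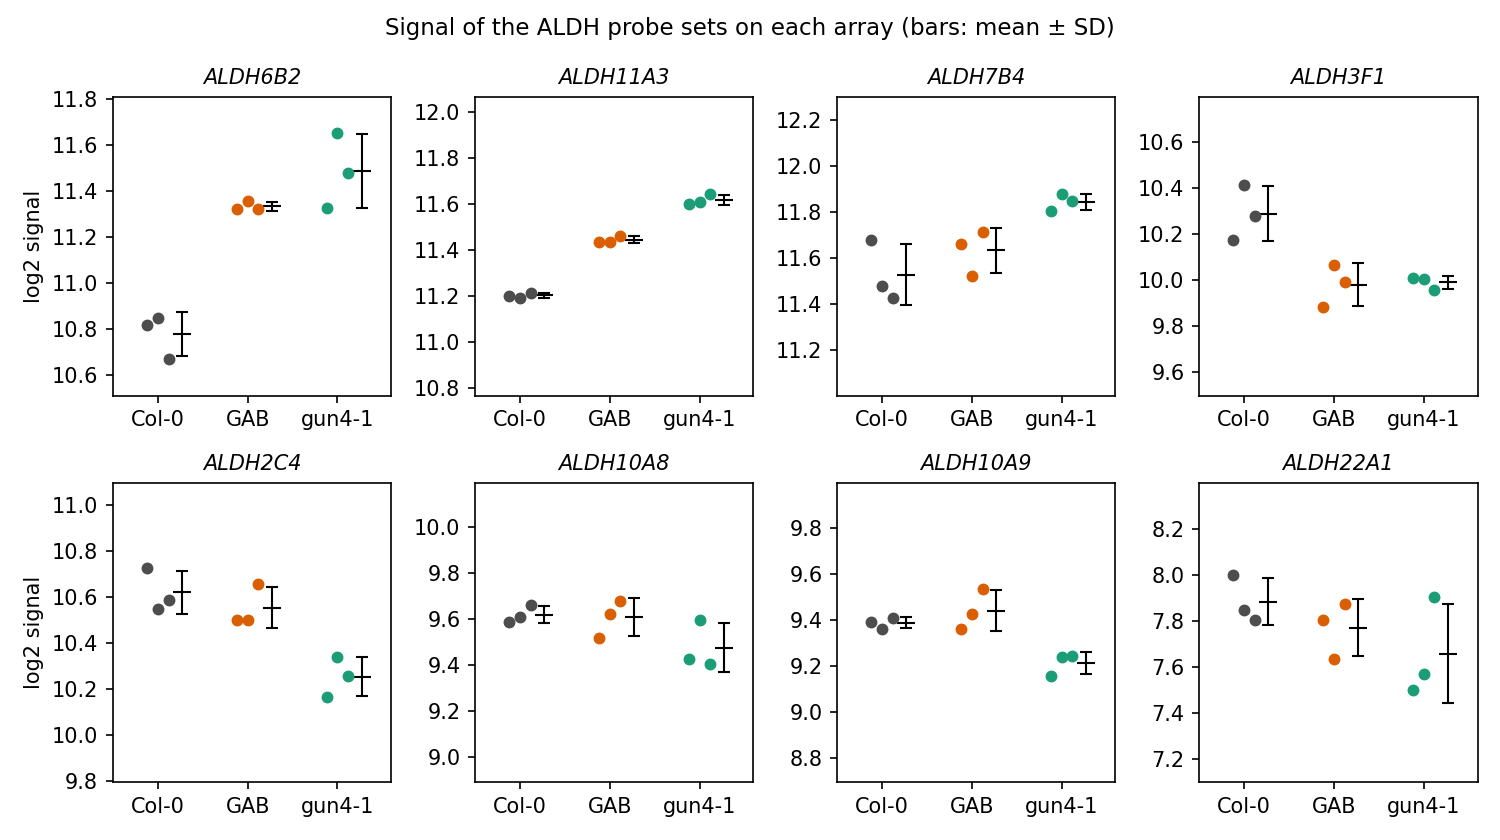
Log2 signal of the 8 aldehyde dehydrogenase probe sets (vertical axes, all with the same span) on the 3 arrays of Col-0, GAB and gun4-1 (points), with the group mean ± SD beside them. All GAB and gun4-1 arrays lie above Col-0 for ALDH6B2 and ALDH11A3 and below Col-0 for ALDH3F1, while only gun4-1 lies below the other groups for ALDH2C4 and ALDH10A9.

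ALDH6B2 (At2g14170) encodes methylmalonate semialdehyde dehydrogenase, a mitochondrial enzyme that, as known best from mammals, acts late in valine breakdown and produces an acyl-CoA rather than a free acid. Its log2 signal was 10.82, 10.85 and 10.67 on the Col-0 arrays, 11.32, 11.36 and 11.32 on the GAB arrays, and 11.33, 11.65 and 11.48 on the gun4-1 arrays. Every treated or mutant array was above every Col-0 array, and the highest values were in gun4-1.

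In gun4-1 ALDH6B2 rose 1.64-fold, a log2 fold change of 0.71 (SE 0.09, 95% interval 0.51 to 0.91, limma adjusted p = 0.00179). It remained called when any single array was left out, with adjusted p from 0.00205 to 0.0133. In GAB its fold change was 1.47, just under the limit of 1.5 (log2 0.56, SE 0.09, 95% interval 0.35 to 0.76). Its adjusted p of 0.0397 passed, but did so again in only 2 of 9 fits that left out an array, where it ranged from 0.0233 to 0.229. Of all probe sets, 418 passed in GAB in the full fit, and 183 to 393 in the fits that left out an array. The direct difference between gun4-1 and GAB was 0.15 (95% interval -0.05 to 0.35, adjusted p = 1), so a larger response in the mutant than with the inhibitor was not shown. Among all probe sets the log2 fold change of ALDH6B2 ranked 273 from the top in GAB and 422 in gun4-1.

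**Figure D2:**
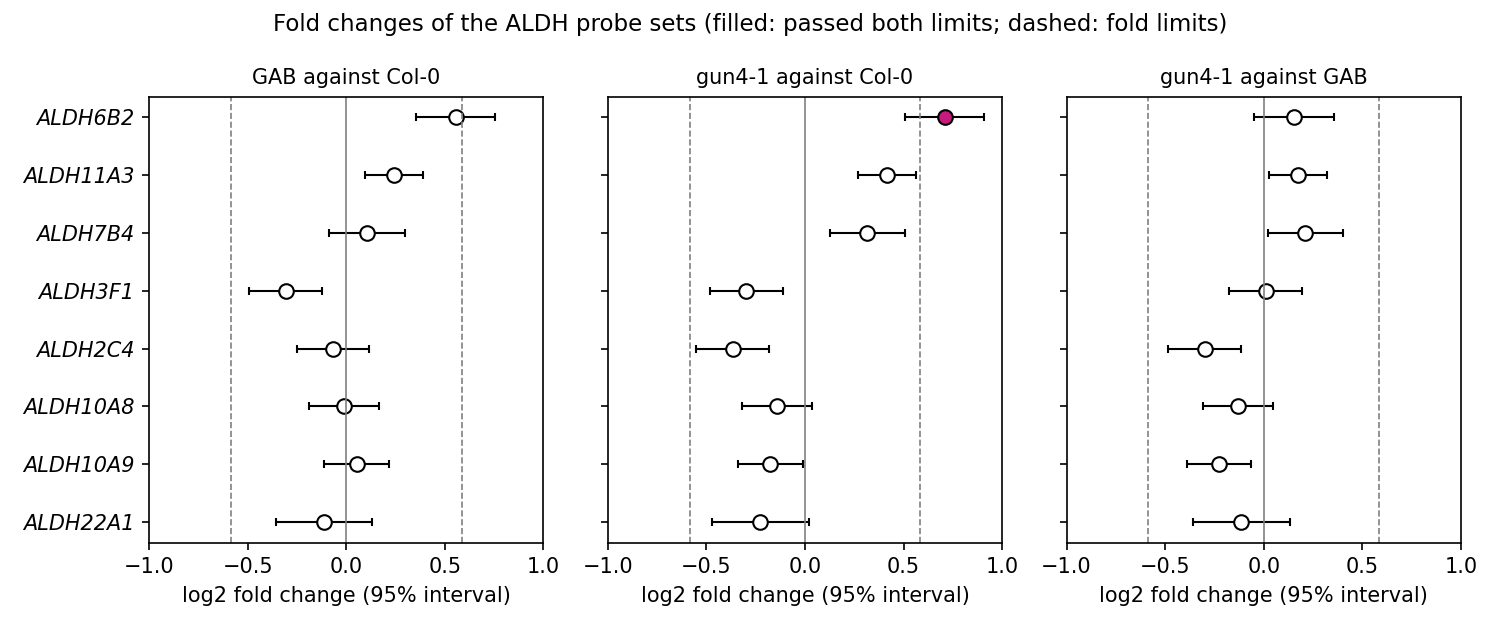
Log2 fold changes (horizontal axes) of the 8 aldehyde dehydrogenases with their 95% intervals in GAB against Col-0, gun4-1 against Col-0 and gun4-1 against GAB. Dashed lines are the fold limits and a filled point is a called probe set; ALDH6B2 in gun4-1, at 0.71, is the only one.

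Of 15 listed genes for the breakdown of branched-chain amino acids other than ALDH6B2, 8 have a named probe set. In GAB 0 of the 8 were called and 1 passed the adjusted p alone, beside 1.46% and 1.84% of all probe sets. All 8 had log2 fold changes above 0 in GAB, with a median of 0.34, beside 0.00 over all probe sets. In gun4-1 3 were called higher and 0 lower, beside 2.44% and 4.46%. There 6 passed the adjusted p alone, beside 10.5%, and the median was 0.53, beside 0.02. The list was chosen with earlier results of these data known. MCCA, the biotin-carrying subunit of methylcrotonyl-CoA carboxylase in leucine breakdown, rose by 0.90 in gun4-1 (SE 0.07, adjusted p = 4.26e-05) and had 0.50 in GAB (SE 0.07, adjusted p = 0.0139, under the fold limit). ETFQO, which passes electrons to ubiquinone, rose by 0.69 in gun4-1 (SE 0.10, adjusted p = 0.00453), and At5g09300 rose by 0.65 (SE 0.08, adjusted p = 0.00104).

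These 3 calls in gun4-1 held without any single array. MCCA had log2 signals of 10.57, 10.57 and 10.68 in Col-0, 11.10, 11.12 and 11.10 in GAB and 11.47, 11.54 and 11.52 in gun4-1. Its arrays therefore fell into 3 ranges that did not overlap, and 2 of its GAB arrays hold exactly the same value. Of the 8 listed genes, 7 had all GAB arrays above all Col-0 arrays, beside 11.1% of all probe sets. Set directly against GAB, gun4-1 had 0 of the 8 called, beside 3.80% of all probe sets. Of the 8, 2, MCCA and At5g09300, passed the adjusted p alone (0.40, adjusted p = 0.0286, and 0.52, adjusted p = 0.0101), as did 1115 of all 22746 probe sets.

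**Figure D3:**
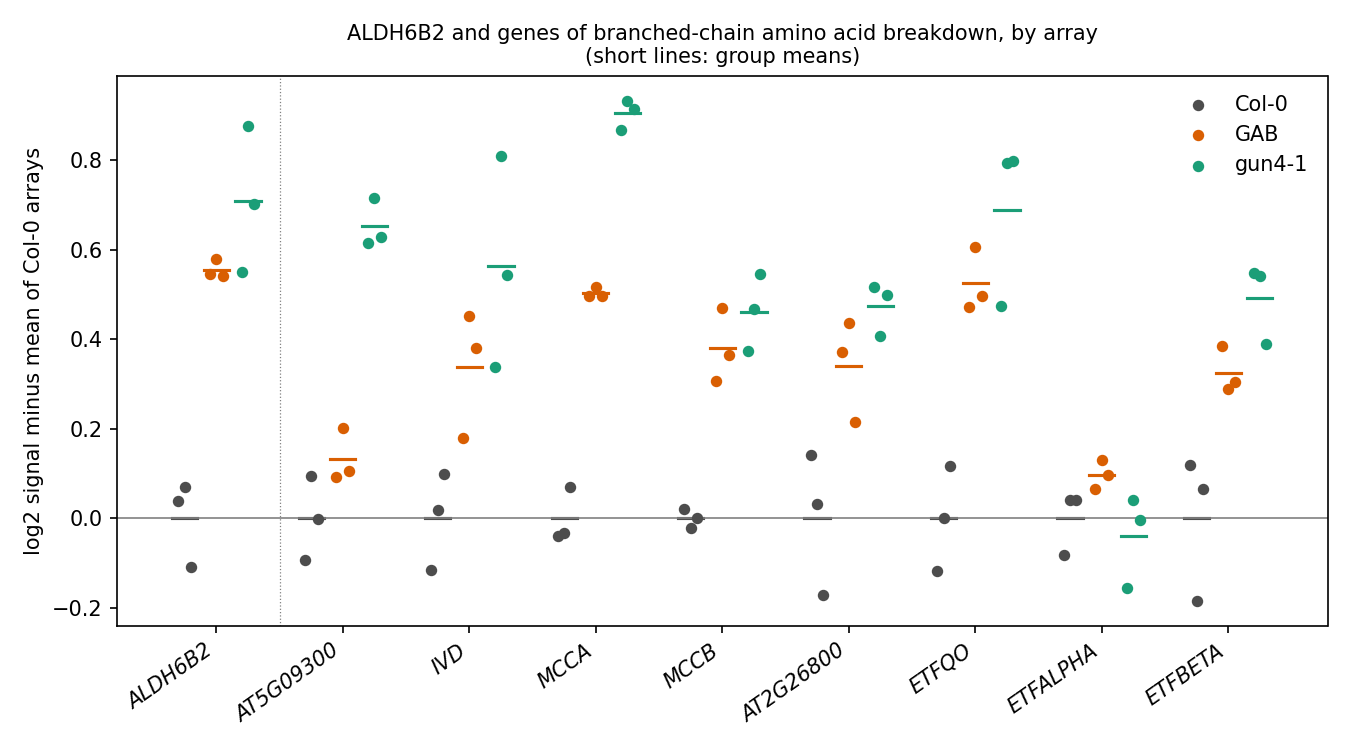
Log2 signal minus the mean of the Col-0 arrays (vertical axis) on each array for ALDH6B2, left of the dotted line, and for all 8 measured genes of branched-chain amino acid breakdown, with short lines for group means. For ALDH6B2 the GAB and gun4-1 arrays lie above all Col-0 arrays; MCCA has the highest mean in gun4-1, 0.90, and ETFALPHA the lowest, -0.04.

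ALDH11A3 (At2g24270) encodes the cytosolic glyceraldehyde-3-phosphate dehydrogenase that is not coupled to phosphorylation and yields NADPH. Its log2 signal was 11.20, 11.19 and 11.22 in Col-0, 11.44, 11.44 and 11.46 in GAB and 11.60, 11.61 and 11.64 in gun4-1. The 3 groups occupied 3 separate, narrow ranges, with SDs of 0.011, 0.016 and 0.022. Its group means spanned 24.6 times the pooled SD, beside 1.46 to 6.46 times for the other members, and the deposited values hold exactly the same number on 2 of the GAB arrays. The limma fit gave the differences of ALDH11A3 an SE of 0.07, beside 0.09 for ALDH6B2.

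In gun4-1 the log2 fold change of ALDH11A3 was 0.41 (SE 0.07, 95% interval 0.27 to 0.56, adjusted p = 0.00908), or 1.33-fold. The adjusted p passed and the fold change did not, so it was not called. Leaving out any single array kept the adjusted p between 0.0166 and 0.0469. In GAB the value was 0.24 (SE 0.07, 1.18-fold, adjusted p = 0.562), and the direct difference between gun4-1 and GAB was 0.17 (95% interval 0.03 to 0.32, adjusted p = 1). GAPC2, the only 1 of 7 listed phosphorylating glyceraldehyde-3-phosphate dehydrogenases with a named probe set, had -0.05 in GAB and -0.18 in gun4-1 and was not called.

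ALDH7B4, ALDH3F1 and ALDH22A1 are the members measured here from families 7, 3 and 22. ALDH7B4 (At1g54100) is a plant antiquitin, induced by dehydration and salt, and had log2 signals of 11.68, 11.48 and 11.43 in Col-0, 11.66, 11.52 and 11.71 in GAB and 11.81, 11.88 and 11.85 in gun4-1. The gun4-1 arrays were above all others, while GAB and Col-0 overlapped. Its log2 fold change was 0.32 in gun4-1 (SE 0.09, 95% interval 0.13 to 0.51, adjusted p = 0.225) and 0.11 in GAB (95% interval -0.08 to 0.30, adjusted p = 1), and neither was called.

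ALDH3F1 (At4g36250) belongs to the family that oxidizes medium- and long-chain aliphatic aldehydes. Its log2 signal was 10.17, 10.41 and 10.28 in Col-0, 9.88, 10.07 and 9.99 in GAB and 10.01, 10.00 and 9.96 in gun4-1. All GAB and gun4-1 arrays were below all Col-0 arrays, and the GAB and gun4-1 ranges overlapped. The log2 fold changes were -0.31 in GAB (SE 0.08, 95% interval -0.49 to -0.12, adjusted p = 0.528) and -0.30 in gun4-1 (SE 0.08, 95% interval -0.48 to -0.11, adjusted p = 0.253), so neither passed. The direct difference was 0.01, with a 95% interval from -0.17 to 0.19.

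ALDH22A1 (At3g66658) had the widest spread of the members in gun4-1, with an SD of 0.216. It read 8.00, 7.85 and 7.80 in Col-0, 7.80, 7.63 and 7.87 in GAB and 7.50, 7.57 and 7.90 in gun4-1. The groups overlapped in every comparison, with log2 fold changes of -0.11 in GAB (95% interval -0.36 to 0.13) and -0.23 in gun4-1 (95% interval -0.47 to 0.02).

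Reactive aldehydes are also removed by enzymes outside this family, of which 6 of 11 listed have a named probe set. In GAB 2 of the 6 were called higher and 0 lower. Over all 22746 probe sets 175 were called higher and 157 lower there, or 1.46% in either direction. In gun4-1 the same 2 were called higher, beside 2.44% of all probe sets, and 0 were called lower, beside 4.46%. At1g54870 had -0.71 in GAB (SE 0.44) and 0.86 in gun4-1 (SE 0.44), with a direct difference of 1.57 (SE 0.44, adjusted p = 0.343). It was not called in any comparison, and its SD within Col-0 was 1.06. AOR, FDH and At5g16990 were not called either. AER, the 2-alkenal reductase that uses NADPH to saturate aldehydes such as 4-hydroxynonenal, rose by 1.36 in GAB (SE 0.09, adjusted p = 7.05e-05) and by 0.83 in gun4-1 (SE 0.09, adjusted p = 0.000387). At5g16980, a putative NADP-dependent oxidoreductase, rose by 1.38 in GAB (SE 0.13, adjusted p = 0.00108) and by 0.65 in gun4-1 (SE 0.13, adjusted p = 0.041).

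Both genes are among those the study singled out on these arrays, so their direction is not independent evidence. AER had log2 signals from 7.67 to 7.73 in Col-0, 8.89 to 9.20 in GAB and 8.49 to 8.57 in gun4-1, so the inhibitor gave the higher values, and the direct difference was -0.53 (adjusted p = 0.019, under the fold limit), called at -0.62 without GAB replicate 3. At5g16980 was called lower in gun4-1 than in GAB, with -0.73 (SE 0.13, adjusted p = 0.0357). Its gun4-1 call was lost without any one Col-0 or gun4-1 array or without GAB replicate 1 (adjusted p 0.0705 to 0.225). Its direct call was lost without Col-0 replicate 1 or 2, GAB replicate 1 or 2 or any gun4-1 array (0.0559 to 0.158), with arrays centred on their medians (0.0641), with quantile normalization (0.0708) and with only both groups in the fit (0.117). Leaving out any 1 array also lowered the number of all probe sets called. It fell from 1570 to between 1307 and 1551 in gun4-1, and from 864 to between 646 and 852 in the direct comparison. AER, At5g16980 and At5g16990 are related genes, and whether their probe sets bind each other's transcripts was not tested.

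**Figure D4:**
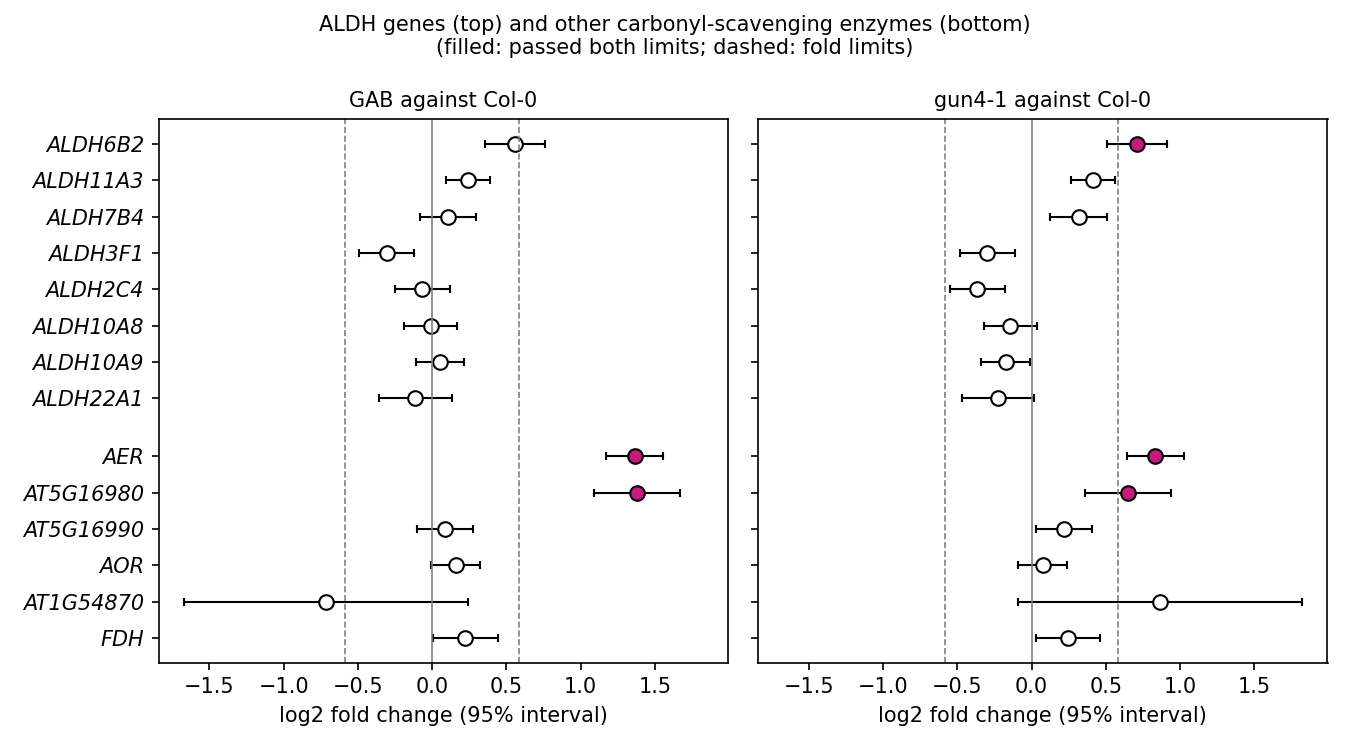
Log2 fold changes (horizontal axes) with 95% intervals for the 8 aldehyde dehydrogenases (top) and the 6 measured enzymes of the list of other carbonyl-scavenging enzymes (bottom), in GAB and in gun4-1 against Col-0. Dashed lines are the fold limits and filled points are called; in GAB AER and At5g16980 lie at 1.36 and 1.38, and no aldehyde dehydrogenase is called.

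Of 16 listed genes of the response to abscisic acid and dehydration, 2 have a named probe set, and neither was called in any comparison. The shares of all probe sets called were 1.46% in GAB, 6.90% in gun4-1 and 3.80% in the direct comparison. COR47, a dehydrin, had -0.07 in GAB and 0.22 in gun4-1. The stress-induced member ALDH7B4 was thus measured beside too few such genes for the list to be described further.

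ALDH2C4 (At3g24503), also known as REF1, oxidizes sinapaldehyde and coniferaldehyde to sinapic and ferulic acid. Its log2 signal was 10.73, 10.55 and 10.59 in Col-0, 10.50, 10.50 and 10.66 in GAB and 10.17, 10.34 and 10.26 in gun4-1. The gun4-1 arrays were below all arrays of both other groups, which overlapped each other, and 2 GAB arrays hold exactly the same value.

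The log2 fold change of ALDH2C4 in gun4-1 was -0.37 (SE 0.08, 95% interval -0.55 to -0.18, 0.776-fold, adjusted p = 0.0851) and was not called. In GAB it was -0.07 (95% interval -0.25 to 0.12, adjusted p = 1). The direct difference between gun4-1 and GAB was -0.30 (SE 0.08, 95% interval -0.48 to -0.12, adjusted p = 0.362). Only 2 of 19 listed genes of phenylpropanoid and sinapate metabolism have a named probe set. HCT, a shikimate hydroxycinnamoyl transferase, had -0.49 in gun4-1 (SE 0.10, adjusted p = 0.043, under the fold limit) and -0.25 in GAB (adjusted p = 1). CCR2, a cinnamoyl-CoA reductase, had 0.22 in gun4-1 (adjusted p = 1) and 0.41 in GAB (adjusted p = 0.583). Of the 2, 0 were called in GAB, gun4-1 or the direct comparison, beside 1.46%, 6.90% and 3.80% of all probe sets.

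ALDH10A8 (At1g74920) and ALDH10A9 (At3g48170) are paralogs that oxidize aminoaldehydes, among them betaine aldehyde and the aldehydes released by polyamine oxidation. ALDH10A8 had log2 signals of 9.59, 9.61 and 9.66 in Col-0, 9.52, 9.62 and 9.68 in GAB and 9.42, 9.60 and 9.40 in gun4-1. ALDH10A9 had 9.39, 9.36 and 9.41 in Col-0, 9.36, 9.43 and 9.53 in GAB and 9.16, 9.24 and 9.24 in gun4-1. For ALDH10A9 the gun4-1 arrays were below all others, while for ALDH10A8 gun4-1 replicate 2 lay within the Col-0 range.

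Neither paralog was called. In GAB the log2 fold changes were -0.01 for ALDH10A8 (95% interval -0.19 to 0.17) and 0.05 for ALDH10A9 (95% interval -0.11 to 0.22), and the sign of the first turned under other settings. In gun4-1 they were -0.14 (SE 0.08, adjusted p = 1) and -0.17 (SE 0.08, adjusted p = 1). The direct difference between gun4-1 and GAB was -0.23 for ALDH10A9 (SE 0.08, 95% interval -0.39 to -0.06, adjusted p = 0.687). Whether the probe sets of the paralogs bind each other's transcripts was not tested.

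Of 15 listed genes of polyamine and aminoaldehyde metabolism, 3 have a named probe set. In GAB 0 were called, against 1.46% of all probe sets. In gun4-1 1 was called lower, against 4.46%, and 0 higher, against 2.44%. It was At5g15950, at -0.83 (SE 0.16, adjusted p = 0.028), which was also lower in gun4-1 than in GAB (-0.99, SE 0.16, adjusted p = 0.0165). The gun4-1 call was lost without Col-0 replicate 1 or 2 or gun4-1 replicate 2 or 3 (adjusted p 0.0816 to 0.152), and with arrays centred on their medians (0.071). The direct call was lost without GAB replicate 1 or 2 or gun4-1 replicate 2 or 3 (0.0551 to 0.0986), and with only both groups in the fit (0.0565). As given above for At5g16980, leaving out an array lowered the calls among all probe sets too.

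Other pathways in which aldehyde dehydrogenases take part were covered thinly. Of 9 listed genes of proline metabolism, 2 have a named probe set and 0 were called in any comparison. Of all probe sets, 1.46%, 6.90% and 3.80% were called in GAB, gun4-1 and the direct comparison. DELTA-OAT, ornithine aminotransferase, had 0.53 in gun4-1 (SE 0.10, adjusted p = 0.0203, under the fold limit) and 0.01 in GAB, and was called at 0.63 without Col-0 replicate 2 and at 0.59 without gun4-1 replicate 1. Of 6 listed genes of acetaldehyde and acetate, 2 are named and 0 were called, beside the same shares of all probe sets. PDC2, a pyruvate decarboxylase, had 0.39 in gun4-1 (adjusted p = 0.0759) and -0.02 in GAB. ACS, an acetyl-CoA synthetase, had -0.23 in gun4-1 and -0.06 in GAB (adjusted p = 1 for both).

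None of the 8 listed genes of the GABA shunt, the pathway of ALDH5F1, has a named probe set (0 of 8), so the step next to gabaculine's second target was not analysed here. In the pathway of ALA itself 2 of 5 listed genes are named. HEMA2, a glutamyl-tRNA reductase, had 0.53 in gun4-1 (SE 0.10, adjusted p = 0.0323, under the fold limit) and 0.31 in GAB (adjusted p = 1), and was called at 0.64 without gun4-1 replicate 1.

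The 8 members thus differed in how the 3 groups were ordered. The group means ran from Col-0 through GAB to gun4-1 for 3 members, ALDH6B2, ALDH11A3 and ALDH7B4. They ran in the opposite order for 3, ALDH2C4, ALDH10A8 and ALDH22A1. ALDH3F1 alone was lowest in GAB, by only 0.01 below gun4-1, and ALDH10A9 alone was highest in GAB, where GAB and Col-0 overlapped. The order of GAB and the neighbouring group turned under other settings for ALDH3F1 and ALDH10A8. Within Col-0, GAB and gun4-1 the median SD of the members was 0.095, 0.089 and 0.067, beside 0.097, 0.095 and 0.113 over all probe sets.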

How the data were processed

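The authors deposited 1 RMA value on the log2 scale for each probe set and ATH1 array. Affymetrix Expression Console is credited in the submitters' processing notes, and its version is not given in the sources used here. Background correction and probe summary are therefore those of the authors. RMA summaries can repeat an identical value on several arrays, which lowers the SD.

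Samples were grouped by their labels. Without the 64 Affymetrix controls, 22746 probe sets were fitted with limma 3.58.1 in R 4.3.3, in a single fit of the 3 groups (6 residual and 5.91 prior degrees of freedom). P-values were adjusted by Benjamini-Yekutieli, with fold limits of 1.5 and 0.667. The study's methods name limma, this adjustment and these fold limits for its arrays, in pairwise comparisons. An exact permutation test of 3 against 3 arrays cannot give a two-sided p below 0.1, so none was used. Genes were named from the platform annotation and RefSeq (13436 of 13513 matched, 503 probe sets have several genes).

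Every member was named, and from each gene list the called probe sets (at most 4) or otherwise the one with the largest difference in any comparison, besides GSA1. Other genes are named where a count rests on them or to show the rest of a list. Members and lists were chosen with earlier results of these data known. No sequences are shown, because none was used here. The fit was tested on simulated data whose changes were larger than any difference of the members, so that test does not cover differences of their size. Alternatives covered adjustment, fold limit, normalization, dim or unnamed probe sets, variance model and array weights. They also covered the groups in the fit, the replicate number as a block, each array left out and an ordinary t-test. That t-test assumed equal variances and kept the Benjamini-Yekutieli adjustment and the fold limits. It is not the study's test of its arrays, which was limma. Student's t-test is named only in the study's general statistical note.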

Additional observations from a re-analysis of the deposited data

How the results depend on the processing

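Of 504 member fold changes under 21 alternative settings, 494 kept direction and side of the limits. Settings that change only the test, adjustment, limits or the group not compared cannot move a fold change. The log2 value of ALDH6B2 was 0.63 to 0.81 in gun4-1 and 0.50 to 0.60 in GAB. The count of members called in GAB was 0, but 1 with no fold limit and 1 with arrays centred on their medians, both times ALDH6B2 (0.60, adjusted p = 0.0168, when centred). In gun4-1 the count was 1, but 2 with no fold limit (ALDH11A3 joins) and 0 with a 2-fold limit. It was also 0 by the ordinary t-test. By that test ALDH6B2 had an adjusted p of 0.478, and only 3 of all 22746 probe sets were called. The cause of the changes with centring and with that test was not tested. The count was 0 in gun4-1 against GAB under all settings. The counts stayed 0, 1 and 0 without any 1 array and with the replicate block. Same-numbered arrays had r from -0.07 to 0.26, over 0.1 in 6 of 9 pairs, beside 5 of 18 pairs of different number. An array correlated best with its own number in another group in 9 of 18 cases, a hint from the data only, and as not every same-number pair passed 0.1 the numbers were not taken to pair the samples. By Benjamini-Hochberg 2, 5 and 1 members passed the adjusted p alone, beside 6.88%, 23.1% and 14.4% of all probe sets, and none of the additional ones passed the fold limits.

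Centring moved the median of all probe sets by 0.04, 0.098 and 0.058. Sign changes occurred in values that were never called. ALDH10A8 in GAB became 0.029 when centred, and ranged from -0.048 to 0.034 as arrays were left out, above 0 without Col-0 replicate 3 or GAB replicate 1. ALDH3F1 in gun4-1 against GAB became -0.00051 with quantile normalization, and ranged from -0.039 (without GAB replicate 1) to 0.053. Among other genes, RCA in gun4-1 against GAB became 0.00029 and PDC2 in GAB 0.024 when centred. With arrays left out, PDC2 in GAB ranged from -0.067 to 0.056, DELTA-OAT in GAB from -0.061 to 0.11, and GSA1 in gun4-1 against GAB from -0.042 to 0.082. Of the lists, the count of 3 for branched-chain amino acid breakdown in gun4-1 became 6 with no fold limit and 5 with centring. It became 0 with a 2-fold limit or the ordinary t-test. In gun4-1 the other carbonyl-scavenging enzymes went from 2 to 1 with array weights and to 0 with a 2-fold limit or that test, the polyamine list from 1 to 0 with these or centring, and DELTA-OAT (0.63) and HEMA2 (0.62) were called with centring, as was HEMA2 with quantile normalization (0.59, adjusted p = 0.00944). In GAB the carbonyl-scavenging count of 2 became 0 by the ordinary t-test (adjusted p = 0.488 for AER and 1 for At5g16980).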
